A study of Mus musculus with 12 samples.

Results

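The comparison described here is that of Ptprk knockout (KO) with wild-type (WT) hepatocytes of the low-fat fraction, 3 libraries against 3, which are 6 of the 12 libraries of the study. Its members were chosen by their labels alone, and every gene that reached 10 or more in 3 or more of the 12 libraries was compared, which kept 16563 of the 52636 genes in the deposited table. Hepatocytes were isolated from steatotic (fat-laden) mouse livers and separated by fat content into low-fat and high-fat cells with a Percoll density gradient and differential centrifugation, steps that per the labels' protocols also remove dead and non-parenchymal cells. PolyA RNA was then sequenced. Each of the 6 mice gave 1 library per fraction, so that the high-fat libraries shown beside the low-fat ones come from the same animals. The sources used here give no age, sex or diet of the mice, and they do not state the knockout allele, its deleted part or whether it acts in hepatocytes only. Values are reads per 20 M (mega), the scale of the deposited table, and n = 3 mice per genotype throughout.

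Ptprk encodes protein tyrosine phosphatase receptor kappa, a transmembrane phosphatase of the R2B family whose extracellular part binds its own kind on neighbouring cells and whose cytoplasmic part removes phosphate from tyrosines, among them those of junction proteins. Hepatocytes take up glucose and fructose, turn surplus sugar into fatty acids through glycolysis and de novo lipogenesis, store fat in lipid droplets and burn it in mitochondria and peroxisomes. The title of the study names glycolysis, lipogenesis and metabolic reprogramming in obesity, and these pathways are taken up below after the targeted gene and the highest-ranked genes.

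Estimated depth of the 6 low-fat libraries was 20.5 to 25 M reads, and the 10 most abundant genes took 8.39% to 9.56% of a library. Hepatocyte transcripts were abundant. Apoa1, which encodes the main protein of high-density lipoprotein, had 39391 to 49242 reads per 20 M over all 6 libraries. The first principal component held 39.6% of the variance and set the number 2 libraries of both genotypes apart, with scores of 29.6 in WT and 49.2 in KO, against -36.6 to -8.49 in the other 4. In these number 2 libraries the nuclear RNA Malat1 was at 72093 and 73160 reads per 20 M, against 21337 to 43007 in the others, and the summed level of 8 neutrophil markers was 90 and 167, against 9 to 29. KO replicate 1 stood apart in another way: it had the lowest summed level of markers of sinusoidal endothelial cells, Kupffer cells and stellate cells. Many of the results that rest on these libraries are given below with and without them.

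Markers of other cells were present. Those of sinusoidal endothelial, Kupffer and stellate cells were mostly lower in KO. Those of blood cells were not, but most of their medians fell below 0 without KO replicate 2. All 12 markers of sinusoidal endothelial cells, which line the liver's capillaries, were lower in KO, with a median log2 fold change of -0.63 against a median of -0.0036 over all 16563 genes. Their summed level was 4232, 4132 and 4434 reads per 20 M in WT replicates 1 to 3 and 1893, 3654 and 3469 in KO replicates 1 to 3, so that the groups did not overlap. The Fc receptor gene Fcgr2b was at 267, 254 and 247 in WT and 94, 183 and 195 in KO. The lectin gene Clec4g was at 239, 179 and 210 in WT and 86, 142 and 149 in KO, and the junction gene Pecam1 at 148, 108 and 130 in WT and 56, 85 and 72 in KO. These 3 genes had an unadjusted limma p-value under 0.05 (0.0371, 0.0446 and 0.0499), as 1.02% of all genes did in that direction, and in 7 of the 12 every KO library lay below every WT library, where 2.97% of all genes did. Without KO replicate 1 the median was -0.38, all 12 were still lower, and no marker had an unadjusted p-value under 0.05; that count was also 0 without WT replicate 1 and without WT replicate 3, and 1 without KO replicate 2. The count of 3 was 0 with an estimated correlation between the 2 libraries of a mouse, 1 on the deposited scaling and 7 in a fit of only the 6 low-fat libraries, while all 12 markers were lower in each. In the high-fat libraries of the same mice the median was -0.43. In bulk libraries, fewer cells of a type and less RNA per cell cannot be told apart.

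Kupffer cells, the macrophages of the liver, gave a similar picture with wider spread. Of 14 tested markers 13 were lower in KO (median -0.64), and their sums of 1488, 1724 and 929 in WT and 737, 1195 and 1043 in KO overlapped. The lectin gene Clec4f, particular to Kupffer cells, was at 239, 285 and 134 in WT and 65, 146 and 136 in KO (unadjusted p = 0.214), and no Kupffer marker had an unadjusted p-value under 0.05 in the fit over all 12 libraries, against 5 lower in a fit of only the 6 low-fat libraries. Stellate cells, which store retinol, had 10 of 11 markers lower in KO (median -0.50), but their sums of 797, 352 and 862 in WT and 193, 680 and 775 in KO overlapped, and without KO replicate 1 the median was -0.023. Of 26 matrix genes 20 were lower (median -0.43; -0.023 without KO replicate 1), with Timp3, an inhibitor of matrix proteases, at 136, 98 and 143 in WT and 45, 105 and 89 in KO, and Col5a2, a collagen chain, at 19, 21 and 22 in WT and 6, 9 and 19 in KO. In the high-fat libraries of the same mice the medians were -0.11 for Kupffer markers, 0.035 for stellate markers (6 of 11 higher) and -0.012 for matrix genes. Hepatocyte markers summed to 932492 to 1106614 in WT and 993017 to 1062757 in KO, with 13 of 14 higher and a median of 0.055; without WT replicate 2 it was 6 of 14 and -0.009, and with library weights, by which limma counts variable libraries for less, 7 of 14. The lists of blood and biliary cells had few tested members. Of 4 erythroid markers 3 were higher in KO (median 1.65, the largest of any list), with sums of 3093 to 3671 in WT and 2676 to 3983 in KO. Of 4 B and plasma cell markers 3 were higher (0.30; sums of 19 to 304 in WT and 46 to 386 in KO), of 3 T and natural killer cell markers 2 (0.068; 32 to 114 and 48 to 153), of 2 neutrophil markers 1 (median 0.32; 9 to 90 and 13 to 167) and of 3 biliary markers 2 (0.016; 757 to 978 and 755 to 949). The genotypes overlapped in each of these 5 sums. Without KO replicate 2 the medians were 0.49 for erythroid, -0.32 for B and plasma cell, -0.41 for T and natural killer cell and -0.62 for neutrophil markers. No defining marker of these types other than 1 of the erythroid list was at 0 in all 6 libraries. The part of these cells in the gene lists below was not tested.

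**Figure D1:**
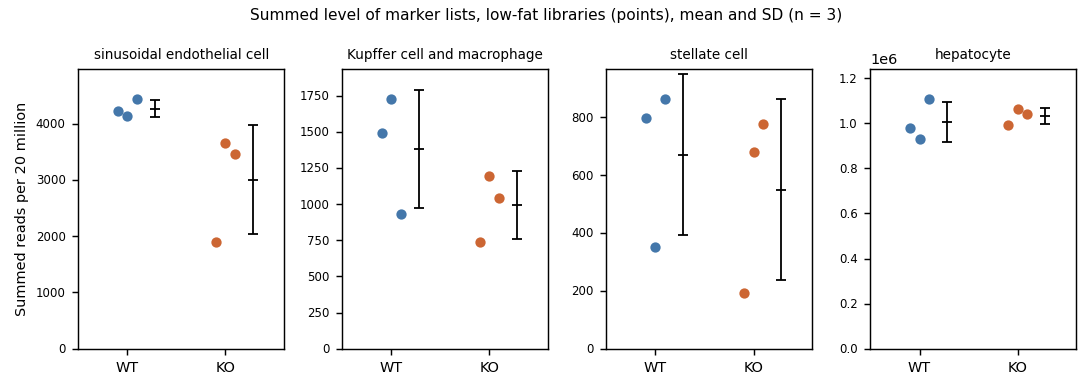
Summed level (reads per 20 M) of the markers of 4 cell types in the 3 WT and 3 KO low-fat libraries (points, replicates 1 to 3 from left to right), with mean and SD. The endothelial sums do not overlap (4132 to 4434 in WT, 1893 to 3654 in KO), whereas the Kupffer, stellate and hepatocyte sums do.

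The targeted gene was examined next. Ptprk (ENSMUSG00000019889), a protein-coding gene on chromosome 10, was at 2758, 2883 and 2724 reads per 20 M in WT and at 1117, 1364 and 1333 in KO libraries. All KO libraries lay below all WT libraries, and the KO mean was 45.6% of the WT mean. Ptprk fell by 1.13 on the log2 scale (SE 0.094, limma adjusted p = 0.00131; range over the alternatives 0.000299 to 0.0438). An exact two-sided permutation test of its level gave p = 0.1, the smallest value that the 20 splits of 3 against 3 libraries allow. In the high-fat libraries its log2 fold change was -0.99, and the difference between both fractions had an unadjusted limma p of 0.324. Reads on any part of the transcript that the allele leaves in place would be counted in KO too. Which part, if any, is deleted is not given in the sources used here, and the source of the KO reads was not tested.

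Ptprk has 3 relatives in the R2B family, and 2 of them were tested. Ptpru was at 68, 44 and 31 reads per 20 M in WT and 30, 34 and 31 in KO (log2 fold change -0.49, unadjusted p = 0.159), and Ptprm at 18, 38 and 19 in WT and 12, 29 and 19 in KO (-0.29, unadjusted p = 0.574). Among 17 genes of adherens junctions and reported PTPRK substrates 7 were higher and 10 lower, with a median of -0.013. Without KO replicate 2 it was 13 higher and a median of 0.042. The largest difference in that list was in Egfr, the epidermal growth factor receptor, at 14600, 19451 and 31474 in WT and 12453, 13370 and 18081 in KO (-0.52, unadjusted p = 0.143; 0.00662 with the replicate number as a block). Pkp4, a plakophilin that links cadherins to the cytoskeleton, was at 2621, 2794 and 2373 in WT and 2850, 2858 and 2762 in KO (0.13, unadjusted p = 0.0897).

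Genes next to Ptprk on chromosome 10 were examined as a list of their own. Of 20 tested neighbours 16 were lower in KO, with a small median of -0.063. Without KO replicate 2 it was 11 of 20 and -0.034, with library weights 12 of 20, and in the high-fat libraries 13 of 20. The 2 members with an unadjusted limma p-value under 0.05 became 0 without WT replicate 3. They also became 0 in a fit of only the 6 low-fat libraries. Rnf217, which encodes a ubiquitin ligase, was at 1175, 1202 and 1282 in WT and 1065, 942 and 1069 in KO (-0.24, unadjusted p = 0.0298), without overlap. Rspo3, the R-spondin that raises Wnt signalling around central veins and is made by endothelial cells there, was at 10, 7 and 9 in WT and 2, 4 and 8 in KO (-0.77, unadjusted p = 0.0464), close to the level of 2.40 to 2.93 that 3 reads are worth in these libraries. Themis, known from T cells, was at 30, 51 and 113 in WT and 17, 29 and 38 in KO (-1.01, unadjusted p = 0.0562). The strain background of either genotype is not given in the sources used here.

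Beyond Ptprk no single gene passed the test. At an adjusted p-value under 0.05 the call was 1 of 16563 genes (0.00604%), and it was Ptprk. At an unadjusted p-value under 0.05 there were 286 genes (1.73%), 117 higher in KO (0.706%) and 169 lower (1.02%). With the replicate number as a block there were 536 (3.24%), 249 higher (1.5%) and 287 lower (1.73%), and Ptprk was again the only gene called. The labels do not say that this number marks a batch or a pair, so results with the block are given as an alternative only. KO and WT libraries did not overlap for 331 genes that were higher in KO (2.0%) and 492 that were lower (2.97%). Differences were small for most genes: 48.8% had a log2 fold change above 0, the quartiles were -0.11 and 0.087, and the outer twentieths of all genes lay below -0.50 and above 0.35. More genes differed by over 1 log2 unit downward (82, 0.495%) than upward (37, 0.223%). In the high-fat libraries limma also called 1 gene, and the interaction of genotype and fraction called 0, with 24 at an unadjusted p-value under 0.05 (0.145%). All values below other than those of Ptprk are therefore ranked differences, not calls, and their limma adjusted p-values were 1.

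**Figure D2:**
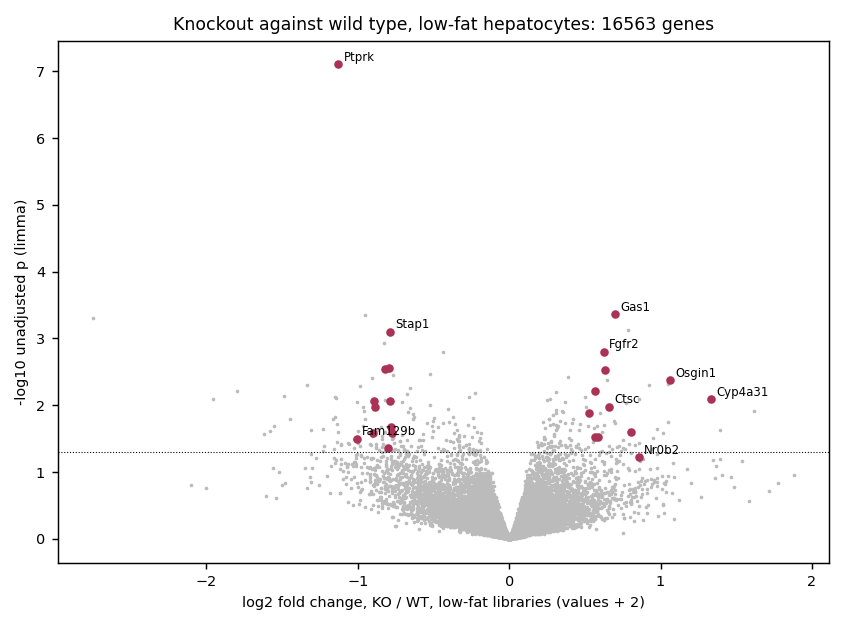
Log2 fold change of KO against WT in low-fat libraries (horizontal) and -log10 of the unadjusted limma p-value (vertical) for 16563 genes; dark points are the 24 ranked genes, some of them labelled, and the dotted line marks 0.05. Ptprk stands alone at the top, and the other ranked genes lie near the dotted line or above it, among grey points of similar size of difference.

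The highest-ranked genes were taken among those averaging 100 or more reads per 20 M with no overlap between genotypes, a condition that itself makes them differ, so that their values are a description. Of the 12 that were highest in KO the largest ratio was that of Cyp4a31, a fatty acid omega-hydroxylase of the P450 4a family, whose members are known targets of the lipid sensor PPAR alpha. It was at 51, 95 and 108 reads per 20 M in WT and 213, 240 and 169 in KO, 2.45 times the WT mean (log2 fold change 1.33, SE 0.417, unadjusted p = 0.00819). Near-identical genes of this family may share its reads. Osgin1, a regulator of growth and cell death induced by oxidative stress, was at 566, 984 and 459 in WT and 1464, 1507 and 1042 in KO (1.06, unadjusted p = 0.00422). WT replicate 2 came close to the lowest KO library, and the other WT libraries were far below. Nr0b2, the small heterodimer partner SHP that represses bile acid synthesis, was at 503, 1349 and 1264 in WT and 1405, 1861 and 1926 in KO (0.86, unadjusted p = 0.0603; 0.00342 with the block).

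Gas1, a membrane protein that restrains growth and binds hedgehog ligands, had the smallest unadjusted p-value of these 12. It was at 497, 665 and 469 in WT and at 879, 852 and 883 in KO, whose replicates lay close together (0.70, SE 0.144, unadjusted p = 0.000437). A noncoding transcript, AC124392.1, overlaps it on the other strand and was likewise higher (0.79), and without knowledge of strand the reads of both cannot be told apart. Fgfr2, a receptor of fibroblast growth factors, was at 1120, 957 and 959 in WT and 1508, 1841 and 1340 in KO (0.62, unadjusted p = 0.00159), with the limit that its gene model in the GENCODE M21 annotation spans many other genes. Ctsc, a lysosomal protease of the periportal list, was at 1435, 1216 and 967 in WT and 1600, 2303 and 1786 in KO (0.66, unadjusted p = 0.0105). Sesn2, a stress-induced inhibitor of the growth kinase mTORC1, was at 320, 258 and 381 in WT and 496, 386 and 530 in KO (0.57, unadjusted p = 0.0299). The lowest KO library thus lay only just above the highest WT library for Sesn2 on the deposited scaling. After the rescaling used in the fit the genotypes overlap for Sesn2. Tbc1d30, a GTPase-activating protein, was at 216, 239 and 265 in WT and 445, 305 and 374 in KO (0.63, unadjusted p = 0.00292). The cytoskeletal adaptor gene Ank3 (0.81), Cdk5rap1 of mitochondrial tRNA modification (0.58), the mitochondrial sodium/calcium exchanger gene Slc8b1 (0.57) and Plekhg3 (0.53) completed the 12, with unadjusted p-values between 0.00615 and 0.0299.

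Of the 12 genes lowest in KO, Ptprk came first by size of difference and 4 others were not independent of each other. Hectd2, a ubiquitin ligase, was at 1355, 1439 and 1585 in WT and 636, 834 and 1097 in KO (-0.79, unadjusted p = 0.00279). Its antisense transcript Hectd2os, which overlaps it on the other strand, was at 1992, 1965 and 2268 in WT and 891, 1176 and 1505 in KO (-0.82, unadjusted p = 0.00291). Whether the counting used strand is not given in the sources used here, so the reads of both cannot be told apart. Teddm2 (-0.89) and Mir8114 (-0.89) likewise overlap Glul, the glutamine synthetase gene taken up below, and like it were highest in WT replicate 3 and lowest in KO replicate 2: Teddm2 was at 765, 666 and 1331 in WT and 624, 334 and 500 in KO, against 10414, 8454 and 20084 in WT and 8635, 4443 and 7450 in KO for Glul.

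The others were single genes. Stap1, a signalling adaptor known from blood cells, had the smallest unadjusted p-value of these 12 genes after Ptprk, at 137, 129 and 143 in WT and 73, 76 and 85 in KO (-0.79, SE 0.173, unadjusted p = 0.000789). Fam129b, a cytoskeletal and growth-signalling protein, was at 900, 553 and 541 in WT and 431, 166 and 452 in KO (-1.01, unadjusted p = 0.0317). Fam124a was at 629, 334 and 349 in WT and 332, 158 and 211 in KO (-0.90, unadjusted p = 0.0258; 1.47e-05 with the block, adjusted 0.0986), and its highest KO library was only 2 reads per 20 M below its lowest WT library. Anxa2, a membrane-binding annexin, was at 150, 121 and 173 in WT and 74, 78 and 101 in KO (-0.79, unadjusted p = 0.00877). Jam2, a junction molecule of endothelial cells, was at 172, 108 and 153 in WT and 64, 87 and 97 in KO (-0.78), and Ntn4, a basement membrane netrin, at 164, 97 and 155 in WT and 58, 91 and 89 in KO (-0.78). Jam2 and Ntn4 were lowest in KO replicate 1, which also had the lowest endothelial sum (1893), and the part of endothelial RNA in them was not tested. The acetyltransferase gene Nat8 (-0.80, unadjusted p = 0.0432) was the last of the 12.

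**Figure D3:**
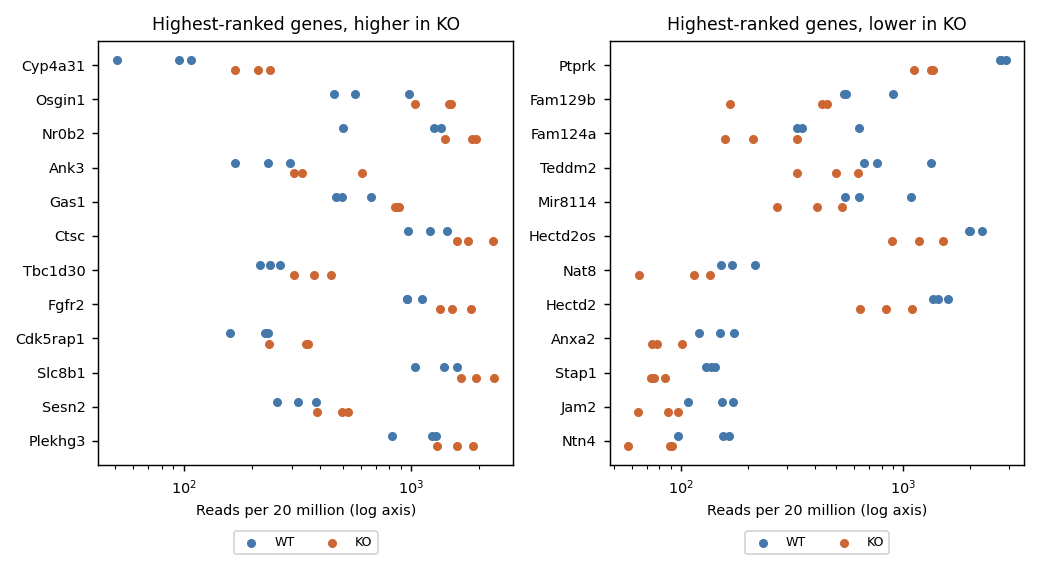
Levels (reads per 20 M, log axis) of the 12 genes highest and the 12 lowest in KO against WT low-fat libraries, 1 point per library. By the rule that chose them KO and WT points do not overlap, and for Ptprk and Stap1 the gap is wide against the spread within a genotype.

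Lists of genes with a shared function are described by how many of their tested members were higher or lower and by their median, beside 48.8% higher and a median of -0.0036 over all genes. Fatty acid oxidation was one-sided: 33 of 35 genes were higher in KO, with a median of 0.13. Their summed level was 294834, 303627 and 326221 reads per 20 M in WT and 334124, 348369 and 330600 in KO. On this deposited scaling every KO library lay above every WT library. The fit divides by scale factors, 0.937 for WT replicate 3 and 1.01 for KO replicate 2. After that rescaling WT replicate 3 lies within the KO range, so the separation depends on the scaling. Ehhadh, the bifunctional enzyme of peroxisomal oxidation, was at 8807, 9774 and 9386 in WT and 11304, 11848 and 11306 in KO (0.31, SE 0.114, unadjusted p = 0.0196). Acaa1b, the peroxisomal thiolase, was at 21757, 23612 and 19826 in WT and 25596, 24348 and 25515 in KO (0.22, unadjusted p = 0.0629). Ehhadh and Cyp4a31 were the 2 members with an unadjusted p-value under 0.05, and 7 of the 35 did not overlap between genotypes, where 2.0% of all genes were higher without overlap. The count of 2 was 1 without WT replicate 1 and 5 without WT replicate 3. The number higher ranged from 28 to 34 and the median from 0.081 to 0.20 when each low-fat library was left out in turn. In the high-fat libraries the median was 0.17. Members of a list share samples and control, so their number is not a number of independent observations.

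Glycolysis and de novo lipogenesis, the pathways in the title, had medians below 0 that did not keep their sign. Of 21 glycolysis genes 14 were lower in KO, with a median of -0.099 (-0.075 in the high-fat libraries, 14 lower there). Pklr, the liver pyruvate kinase at the end of glycolysis, was at 19542, 16292 and 14316 in WT and 14102, 9253 and 14932 in KO (-0.40, unadjusted p = 0.107). Gpi1, which converts glucose 6-phosphate to fructose 6-phosphate, was at 9770, 7409 and 8205 in WT and 8150, 5214 and 6979 in KO (-0.33, unadjusted p = 0.0906; 0.0187 with the block, the only glycolysis gene under 0.05 there). Hexokinase 2 (Hk2) was near the floor, at 12, 19 and 6 in WT and 1, 7 and 8 in KO. The lowest level of both Pklr and Gpi1 was in KO replicate 2, and without that library the median of the list was 0.026; without WT replicate 1 it was 0.021. KO and WT overlapped for every one of the 21 genes.

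Of 18 lipogenesis genes 12 were lower in KO, with a median of -0.10 (-0.18 in the high-fat libraries, 13 lower there). None had an unadjusted p-value under 0.05 in the low-fat comparison. Acaca, the acetyl-CoA carboxylase that commits carbon to fatty acids, was at 10482, 6585 and 6588 in WT and 7523, 3995 and 7427 in KO (-0.34, unadjusted p = 0.269). The elongase gene Elovl6 was at 6108, 3208 and 1975 in WT and 2956, 1891 and 3358 in KO (-0.34, unadjusted p = 0.434), and without WT replicate 1 its log2 fold change was 0.083. Fads2, a desaturase, was at 11737, 8717 and 6600 in WT and 10892, 8228 and 12209 in KO (0.24, unadjusted p = 0.323). WT replicate 1 had the highest summed lipogenic level of the 6 (484599) and KO replicate 2 the lowest (262758); without the former the median was 0.085, without the latter 0.13, and with library weights 0.072. The spread of WT alone, from 304608 to 484599, thus exceeded the difference between the group means of 394592 and 357341.

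Fructose enters the same route below phosphofructokinase. The 10 genes of sugar entry were split 5 to 5 (median -0.0065, and -0.15 with 7 lower in the high-fat libraries). Mean low-fat levels were lower in KO for Tkfc and Khk, enzymes of fructolysis. Tkfc, which phosphorylates glyceraldehyde, was at 23720, 21658 and 21021 in WT and 22395, 12070 and 15514 in KO (-0.45, unadjusted p = 0.0488). Khk, ketohexokinase, was at 15059, 15208 and 13775 in WT and 14311, 10358 and 12468 in KO (-0.25, unadjusted p = 0.0984). In both of these KO replicate 1 lay within the WT range and KO replicate 2 was lowest. Of 10 genes of the pentose phosphate pathway and NADPH supply 7 were lower (median -0.095), with Pgd at 1764, 1347 and 1128 in WT and 1476, 634 and 1115 in KO (-0.45, unadjusted p = 0.149; 0.0339 with the block); without KO replicate 2 that median was 0.041. Gluconeogenesis was balanced, with 9 of 19 higher and a median of -0.0019.

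Lipid droplet genes and targets of PPAR gamma, the adipogenic receptor that is induced in fatty liver, were mostly lower: 16 of 20, with a median of -0.13 (-0.028 in the high-fat libraries). Cd36, a fatty acid transporter, was at 1475, 1509 and 2027 in WT and 909, 1187 and 1051 in KO, without overlap (log2 fold change -0.66, SE 0.216, unadjusted p = 0.0109; -0.65 in the high-fat libraries). Sinusoidal endothelial cells and macrophages also express Cd36, and their markers were lower in KO; their part in this value was not tested. Plin5, the perilipin that ties droplets to mitochondria, was at 1488, 1414 and 1561 in WT and 1388, 1187 and 1091 in KO (-0.28, unadjusted p = 0.0398). Mgll, monoglyceride lipase, went the other way, at 5839, 5829 and 4823 in WT and 7119, 5592 and 6826 in KO (0.25, unadjusted p = 0.0516). Leaving out each library in turn kept the median between -0.20 and -0.076, while of the 2 genes under 0.05, 1 was left without WT replicate 1, KO replicate 2 or KO replicate 3 and 0 without WT replicate 3.

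Cholesterol synthesis had 19 of 25 genes higher in KO, with a median of 0.16 and 0.14 in the high-fat libraries. Fdft1, squalene synthase, was at 505, 675 and 651 in WT and 745, 826 and 1050 in KO, without overlap (0.52, SE 0.194, unadjusted p = 0.0208). Insig2, which holds the sterol sensor in the endoplasmic reticulum and so restrains synthesis, was at 11704, 9731 and 7749 in WT and 9078, 5439 and 6718 in KO (-0.46, unadjusted p = 0.0871; 0.00262 with the block). The median rested in part on KO replicate 3, without which it was 0.0012 and 13 of 25 genes were higher. Fdft1 was the 1 gene with an unadjusted p-value under 0.05; there were 0 such genes without KO replicate 3, 3 higher without WT replicate 1, 2 without KO replicate 1 and 4 without KO replicate 2. Of 24 genes of bile acid synthesis and transport 17 were lower (median -0.063, and -0.0045 without KO replicate 2). Cyp7a1, the rate-limiting enzyme of bile acid synthesis, was at 1685, 1322 and 3778 in WT and 734, 896 and 2071 in KO (-0.87, unadjusted p = 0.126; 0.00477 with the block), while its repressor gene Nr0b2 was among the genes ranked highest in KO. For Cyp7a1 each KO library was below the WT library of the same number.

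**Figure D4:**
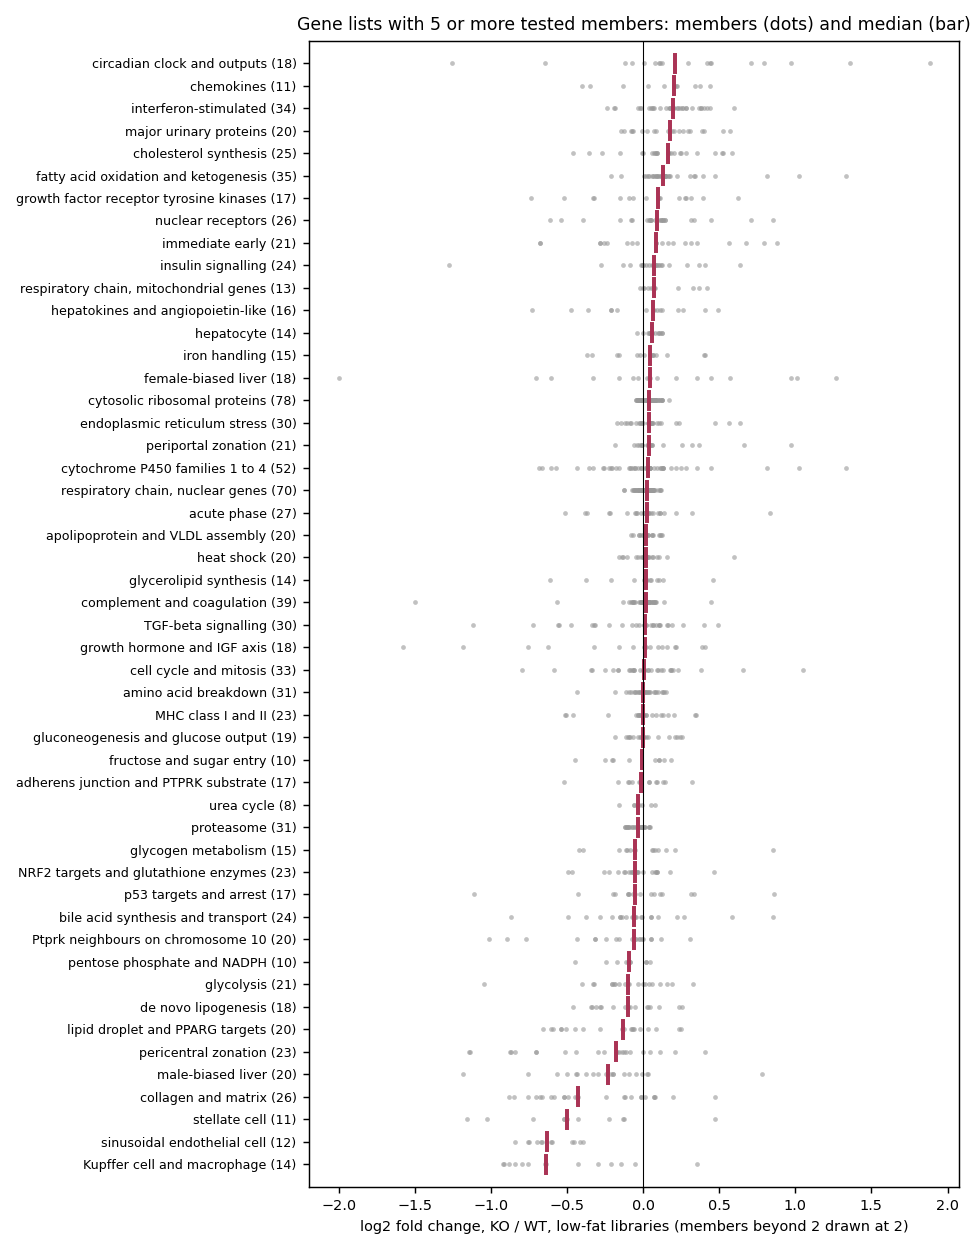
Log2 fold change of KO against WT in low-fat libraries for the tested members (grey dots) and the median (bar) of the lists with 5 or more tested members, their number in parentheses. Most medians lie close to 0. Those of clock, chemokine, interferon, major urinary protein, cholesterol and fatty acid oxidation genes lie between 0.13 and 0.21. Those of endothelial and Kupffer markers are -0.63 and -0.64. The medians of stellate markers, matrix genes and male-biased genes are -0.50, -0.43 and -0.23.

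Hepatocytes differ along the blood's path from the portal to the central vein, and Wnt signals from central vein endothelium maintain the pericentral programme, of which glutamine synthetase is the best-known gene. Of 23 pericentral genes 18 were lower in KO, with a median of -0.18 (-0.14 in the high-fat libraries). Nkd1, a feedback inhibitor and target of Wnt signalling, was at 38, 33 and 31 in WT and 14, 9 and 22 in KO, without overlap (-1.15, SE 0.356, unadjusted p = 0.00792). Rhbg, an ammonium transporter, was at 85, 89 and 167 in WT and 82, 25 and 53 in KO (-1.13, unadjusted p = 0.0191), and its highest KO library came close to its lowest WT library. Glul itself was 10414, 8454 and 20084 in WT and 8635, 4443 and 7450 in KO (-0.87, unadjusted p = 0.0238), with overlap and with WT replicate 3 far above the rest. These 3 had an unadjusted p-value under 0.05, against 5 lower and 1 higher with the block; 1 did without WT replicate 3, 1 without KO replicate 2, and 7 without either WT replicate 1 or KO replicate 3. The median stayed between -0.43 and -0.14 when 1 library was left out, and was -0.046 with library weights (16 of 23 lower). Of the periportal genes 14 of 21 were higher, with a median of 0.036, against 8 of 21 and -0.016 without WT replicate 2. Among them Cyp17a1, a steroid hydroxylase, was at 135, 456 and 183 in WT and 333, 444 and 578 in KO (0.97, unadjusted p = 0.053).

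Interferons induce a set of antiviral genes, many of them through the interferon-stimulated response element (ISRE) to which the STAT and IRF factors bind. Of 34 such genes 28 were higher in KO, with a median of 0.20 (0.16 in the high-fat libraries), and 10 were among the 500 genes of highest moderated t, where 3.02% of all genes are. Zbp1, a sensor of Z-form nucleic acids, was at 44, 64 and 53 in WT and 73, 90 and 81 in KO, without overlap (0.60, SE 0.204, unadjusted p = 0.013). Irf7, the factor that amplifies interferon production, was at 705, 831 and 760 in WT and 959, 827 and 889 in KO (0.23, unadjusted p = 0.0379). Ifit1, which binds viral RNA, was at 133, 219 and 187 in WT and 220, 219 and 241 in KO (0.37, unadjusted p = 0.0388). The other 3 members with an unadjusted p-value under 0.05 were Gbp6 (0.40), Igtp (0.44) and Usp18 (0.28), which were chosen after their values were seen. Igtp, a GTPase induced by interferon gamma, was at 411, 622 and 407 in WT and 605, 695 and 612 in KO. The differences were small, and WT replicate 2 reached the KO range for Irf7, Ifit1 and Igtp. The count of 6 of 34 stands beside 0.706% of all genes in that direction. It was 2 on the deposited scaling, 3 in a fit of only the 6 low-fat libraries, 0 without WT replicate 1, 3 without WT replicate 3 and 2 without either KO replicate 1 or KO replicate 3; the number of genes higher stayed between 23 and 31 and the median between 0.12 and 0.31.

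Promoters of the interferon list were read from the RefSeq table (GRCm38.p6) as the 250 bases before each start, because a set that leans one way together may share letters there. The element was searched as GAAA, any 2 bases and GAAA again, on both strands, with overlapping matches joined, and the list and motif were chosen after the list's values were seen. It is present in 2.977% of all 32851 windows, and in 13 of the 27 windows (48.15%) of the 23 members found in the table; the members were picked as interferon-stimulated, so that this is a description of the list. The windows of Ifit1 and Igtp are shown as members with an unadjusted p-value under 0.05 that hold it, with the matches in capitals. Those of Ifit1 (chr19:34640639-34640888, plus strand) begin at -104 from the start, and that of Igtp (chr11:58199306-58199555, plus strand) at -34; the window of Irf7 holds none.
Ifit1: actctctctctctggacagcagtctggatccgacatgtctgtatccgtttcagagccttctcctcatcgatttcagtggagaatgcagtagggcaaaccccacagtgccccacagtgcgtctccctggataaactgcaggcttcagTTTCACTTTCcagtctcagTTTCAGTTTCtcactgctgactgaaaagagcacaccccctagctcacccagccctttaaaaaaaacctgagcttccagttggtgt
Igtp: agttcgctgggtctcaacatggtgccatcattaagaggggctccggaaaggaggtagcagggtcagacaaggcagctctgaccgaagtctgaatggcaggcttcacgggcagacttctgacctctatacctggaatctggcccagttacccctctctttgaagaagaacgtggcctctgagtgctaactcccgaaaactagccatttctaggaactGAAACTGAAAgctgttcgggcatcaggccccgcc

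Chemokines, which attract leukocytes, had 8 of 11 tested members higher in KO in the low-fat libraries (median 0.20) but a median of -0.042 in the high-fat ones and of -0.043 without KO replicate 2. Cxcl12 was at 4410, 6010 and 3621 in WT and 5631, 6423 and 5293 in KO (0.34, unadjusted p = 0.0345), and Ccl9 at 334, 436 and 434 in WT and 480, 516 and 632 in KO, without overlap (0.44, unadjusted p = 0.102; 0.00797 with the block). Of 23 genes of antigen presentation (MHC class I and II) 12 were higher, with a median of 0.0008. Acute phase genes had 17 of 27 higher and a median of 0.025. The number higher ranged from 5 to 19 and the median from -0.078 to 0.075 when 1 low-fat library was left out.

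The circadian clock is a loop in which Arntl and Clock switch on Per, Cry and output genes such as Dbp and Tef through E-box sequences, and the Per and Cry proteins switch Arntl and Clock off. Of 18 clock genes 14 were higher in KO, with a median of 0.21 (0.16 in the high-fat libraries). Cry2 was at 678, 1039 and 707 in WT and 860, 1203 and 1133 in KO (0.42, SE 0.152, unadjusted p = 0.0186). Tef was at 800, 1527 and 1625 in WT and 1221, 3402 and 2463 in KO (0.79, unadjusted p = 0.0925; 0.000267 with the block). Dbp, chosen after its values were seen, was at 77, 351 and 611 in WT and 256, 2011 and 1630 in KO, the largest log2 fold change of the list (1.88, SE 1.09) with an unadjusted p of 0.11. Arntl went the other way, at 623, 656 and 282 in WT and 369, 294 and 274 in KO (-0.64, unadjusted p = 0.098). WT and KO ranges overlapped for each of these 4, and replicate 1 was low for Cry2, Tef and Dbp in both genotypes, so that KO exceeded WT within each replicate number. Only Cry2 had an unadjusted p-value under 0.05 without the block, against 6 higher and 1 lower with it; the count was 5 without KO replicate 1 and 0 for higher genes without WT replicate 1, WT replicate 3, KO replicate 2 or KO replicate 3. The median ranged from 0.057 to 0.41 when 1 library was left out. The labels give no hour at which livers were taken.

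E-boxes were searched as CACGTG in the same RefSeq windows, again after the list's values were seen. This motif reads the same on both strands and is in 6.021% of all windows and in 6 of the 20 windows (30%) of the 15 clock genes found in the table. The members were picked as clock genes, so that this share too is a description of the list. A window of Tef (chr15:81811164-81811413, plus strand) is shown as the member of largest difference among those named by rule. Its match is in capitals and begins at -138 from the start. The windows of Cry2, Dbp and Arntl, the other clock genes whose levels are given above, hold none.
Tef: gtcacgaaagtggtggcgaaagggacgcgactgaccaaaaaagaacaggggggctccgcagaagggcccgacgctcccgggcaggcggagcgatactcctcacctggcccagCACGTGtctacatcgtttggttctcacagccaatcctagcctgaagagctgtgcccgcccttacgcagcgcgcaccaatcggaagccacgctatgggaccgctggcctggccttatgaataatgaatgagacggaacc

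**Figure D5:**
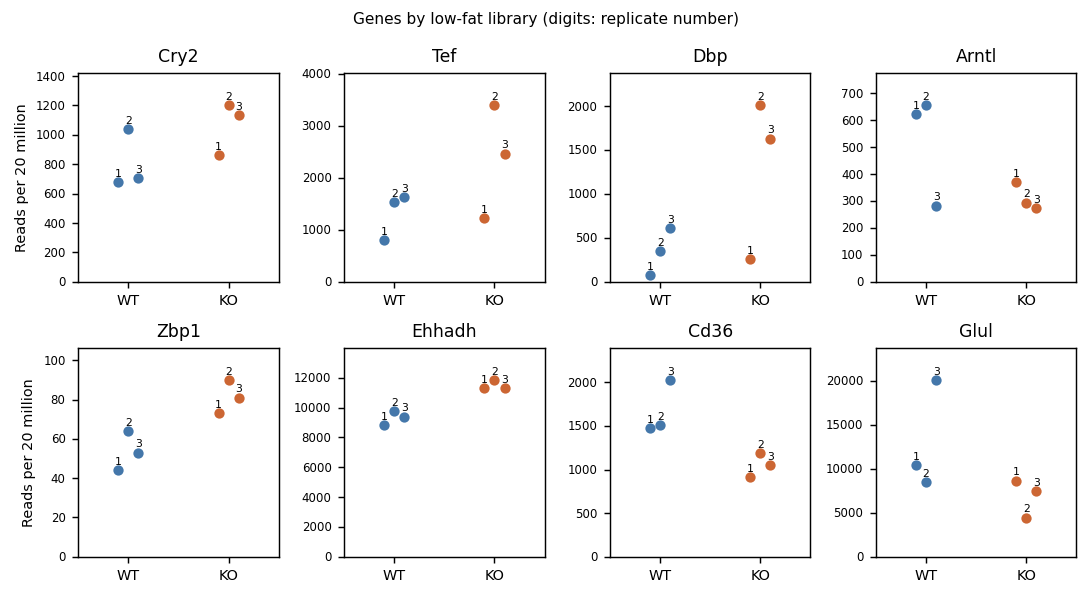
Levels (reads per 20 M, from 0) of 8 genes named in the text in the 3 WT (blue) and 3 KO (orange) low-fat libraries, with the replicate number above each point; the 8 were chosen after their values were seen. For Zbp1, Ehhadh and Cd36 the genotypes do not overlap, whereas for Cry2, Tef, Dbp, Arntl and Glul they do.

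Signalling lists had medians near 0, with larger differences in single members. Of 24 insulin signalling genes 18 were higher in KO (median 0.072), against 12 of 24 (-0.0051) without WT replicate 2. Tsc1, a brake on mTORC1, was at 997, 1220 and 1104 in WT and 1371, 1324 and 1329 in KO, without overlap (0.29, unadjusted p = 0.0194). Pik3ca, the catalytic subunit of PI 3-kinase, was at 1135, 1212 and 1258 in WT and 1337, 1397 and 1301 in KO (0.17, unadjusted p = 0.0791), and Grb10, an inhibitory adaptor of the insulin receptor, at 142, 33 and 46 in WT and 22, 26 and 23 in KO (-1.28, unadjusted p = 0.0621). In the growth hormone and IGF list (11 of 18 higher, median 0.013) Igfbp2, a secreted IGF-binding protein of hepatocytes, was at 7281, 6299 and 5817 in WT and 9011, 7637 and 8575 in KO, without overlap (0.39, SE 0.107, unadjusted p = 0.00376). Igfbp3, which in liver is made mainly by non-parenchymal cells, was at 45, 17 and 50 in WT and 2, 19 and 19 in KO (-1.58, unadjusted p = 0.0241). Among growth factor receptor kinases 10 of 17 were higher (median 0.097); besides Fgfr2, Erbb3 was at 3195, 4860 and 5202 in WT and 4888, 5848 and 6294 in KO (0.39, unadjusted p = 0.107; 0.00616 with the block). Of 30 TGF-beta pathway genes 17 were higher, with a median of 0.014.

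The male-biased liver programme, driven by pulsatile growth hormone, had 17 of 20 genes lower in KO and a median of -0.23, but it varied widely between mice. Hsd3b5, a male-specific steroid dehydrogenase, was at 2575, 3046 and 2807 in WT and 2685, 1071 and 2680 in KO (-0.50, unadjusted p = 0.161), so that only KO replicate 2 was clearly low. Bcl6, the repressor that upholds the programme, was at 300, 1859 and 1355 in WT and 748, 216 and 391 in KO (-1.18, unadjusted p = 0.208). Without KO replicate 2 the median was 0.14, and without KO replicate 1 it was -0.69. No member had an unadjusted p-value under 0.05, against 3 lower with the block and 6 lower without KO replicate 1. The major urinary proteins, abundant products of the same hormone whose near-identical genes may share reads, had 14 of 20 higher and a median of 0.18, which was -0.61 without KO replicate 1 and 0.69 without KO replicate 2.

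Housekeeping machinery differed by little. Of 78 cytosolic ribosomal protein genes 59 were higher in KO (median 0.042; -0.026 and 24 higher without WT replicate 2), of 31 proteasome genes 25 were lower (-0.035; 5 lower without KO replicate 2) and of 70 nuclear-encoded respiratory chain genes 47 were higher (0.025; 9 without KO replicate 1 and 69 without KO replicate 2). None of these members had an unadjusted p-value under 0.05. Endoplasmic reticulum stress (18 of 30 higher, median 0.041), heat shock (11 of 20, 0.021), complement and coagulation (23 of 39, 0.017), apolipoproteins (14 of 20, 0.022), urea cycle (2 of 8, -0.032) and amino acid breakdown (17 of 31, 0.0011) likewise had medians within 0.05 of 0 with all libraries. Single libraries turned some of them: endoplasmic reticulum stress had 5 of 30 higher (-0.096) without WT replicate 2, 27 (0.15) without WT replicate 1 and a median of 0.22 without KO replicate 3. Heat shock had 4 of 20 higher (-0.11) without KO replicate 1, 17 (0.12) without KO replicate 3 and 2 with library weights. The number higher ranged from 9 to 26 for complement and coagulation, 8 to 18 for apolipoproteins and 10 to 23 for amino acid breakdown when 1 library was left out. In this last list Kynu, kynureninase of tryptophan breakdown, was at 6835, 6606 and 5882 in WT and 5478, 5862 and 5517 in KO, without overlap (-0.19, unadjusted p = 0.037), and Bhmt, which remethylates homocysteine, at 39277, 40362 and 42046 in WT and 39089, 21120 and 32140 in KO (-0.44, unadjusted p = 0.0997). Of 17 p53 targets and arrest genes 10 were lower (median -0.052) and the extremes pointed apart: Bbc3, the death inducer PUMA, was at 77, 140 and 66 in WT and 117, 199 and 186 in KO (0.86, SE 0.269, unadjusted p = 0.0082), and Cdkn1a, the cell cycle inhibitor p21, at 639, 348 and 523 in WT and 447, 232 and 107 in KO (-1.11, unadjusted p = 0.091). Cell cycle genes were split 17 to 16 with a median of 0.0029, and the low-level survivin gene Birc5 was at 10, 14 and 10 in WT and 17, 44 and 21 in KO (1.05, unadjusted p = 0.0177).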

How the data were processed

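RNA sequencing measured transcript levels in 12 hepatocyte libraries, 6 of them low-fat. The deposited table holds a score: the authors scaled gene read counts to 20 M per library and rounded them up to whole numbers, as read from the values, whose columns each sum to 20.01 M. The genome build is mm9 per the submitters' processing notes; aligner, counter, annotation and strandedness are not given in the sources used here. Gene identifiers were matched to GENCODE M21 (99.6%) for names, chromosomes and overlaps only. The number of value columns without a sample was 0.

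A count model had been planned, but because the values are scaled, limma 3.58.1 in R 4.3.3 was run on log2(value + 2), after rescaling by the trimmed mean of M values. It fitted 4 group means over all 12 libraries with a variance trend. Tests are two-sided, with Benjamini-Hochberg adjustment over 16563 genes and calls at adjusted p under 0.05. Fold changes are on this log2 scale, which understates low genes. Levels, summed levels and overlap between genotypes are on the deposited scaling, before this rescaling. The fit was tested on simulated data. P-values measure the spread between libraries within a group, pooled over the 4 groups and thus over both fractions. The low-fat and high-fat library of a mouse are counted as separate. In a fit of only the 6 low-fat libraries the limma adjusted p of Ptprk was 0.0438, against 0.00131 over all 12.

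Depth was estimated from the pattern of low values; the estimator was revised after it failed on simulated data, and its search range was narrowed after its output and an earlier estimate were known. A level of 3 reads corresponds to 2.40 to 2.93 reads per 20 M. This covers counting error only. Replicates were not copies: the chi-square statistic per gene was 29.4 to 45.1 within groups.

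WT and KO libraries with the same number are from separate mice. The number is the one in the sample titles, and the labels do not say that it marks a batch, a day or a pair. Their deviations from the group means correlated with r of 0.251, 0.396 and 0.296, against a mean of -0.155 for other numbers. Deviations from a group mean cancel within a genotype, so positive values for same numbers push the others below 0. The -0.155 is therefore no separate baseline, and whether the number stands for a shared source was not tested. A fit with the replicate number as a block is given as an alternative where it moves a result. The single-gene p-values given with the block are ones that it lowered, so they do not show how the block acts on other genes.

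The text names Ptprk, the 12 genes highest and the 12 lowest by log2 fold change among genes with a named symbol, a low-fat mean of at least 100 and no overlap, and the 3 members of smallest p of each list; a few genes that this rule names are not reported here, and other genes are said to be chosen after their values were seen. Members and lists were chosen with earlier results of these data known.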

Additional observations from a re-analysis of the deposited data

How the results depend on the processing

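Alternatives changed the scaling, pseudocount, filter on low values, libraries in the fit, covariates or library weights, or left out 1 low-fat library. Under each of them limma called 1 gene, Ptprk, in the low-fat comparison and 0 genes for the interaction, where a fit existed (the interaction cannot be had from the 6 low-fat libraries alone). The number of genes at an unadjusted p-value under 0.05 moved more. The 117 higher in KO became 269 with no filter, 249 with the replicate block and 295 with library weights, and ranged from 85 (without WT replicate 1) to 193 (without KO replicate 1), with 177 without WT replicate 2. The 169 lower in KO became 430 with no filter, 287 with the replicate block and 309 with library weights, and ranged from 125 to 231 when 1 library was left out. Blocking on the replicate number changed no call: Ptprk had a limma adjusted p of 0.000633 with it. The fold change of Elovl6, which was not called, ranged from -0.71 to 0.083 when 1 library was left out; it was above 0 without WT replicate 1. Over all alternatives 12 of 928 list medians moved by more than the spread between replicates, each when 1 library was left out; the cause was not tested. With 3 libraries per group and depths of 20.5 to 25 M reads, genes near 2.40 to 2.93 reads per 20 M, the level of 3 reads, cannot be compared.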

Other observations

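Several genes outside the ranked lists had small unadjusted p-values and were picked after their values were seen. Capn11, a calpain protease known from testis, was at 20, 22 and 55 reads per 20 M in WT and 3, 3 and 2 in KO low-fat libraries, and at 30, 32 and 75 in WT and 4, 6 and 0 in KO high-fat libraries of the same mice (low-fat log2 fold change -2.75, unadjusted p = 0.000497). Its KO values lie near the level of 3 reads. The zinc finger gene Zfp979 was at 8, 5 and 19 in WT and 1, 2 and 1 in KO (-1.80, unadjusted p = 0.00622). All KO values of Zfp979 lie below the level of 3 reads, so the size of its difference is not reliable. Among genes with higher levels, Wwtr1, which encodes the Hippo pathway coactivator TAZ, was at 557, 521 and 555 in WT and 380, 381 and 439 in KO (-0.44, SE 0.106, unadjusted p = 0.00158). Pdgfc, a growth factor for mesenchymal cells, was at 87, 117 and 98 in WT and 48, 50 and 70 in KO (-0.83, unadjusted p = 0.00118). None of these 4 genes passed the test over all genes.

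All 6 mice expressed Y-linked genes, with Ddx3y at 1754, 1808 and 1688 reads per 20 M in WT and 1444, 1495 and 1537 in KO (-0.22, SE 0.067, unadjusted p = 0.00665). The genotypes did not overlap for Ddx3y. Eif2s3y was at 817, 959 and 870 in WT and 593, 856 and 707 in KO (-0.30, unadjusted p = 0.0291). Unnamed transcripts were also among the smallest p-values: Gm19619 was at 394, 425 and 352 in WT and 244, 183 and 176 in KO (-0.96, unadjusted p = 0.000443), and AC124392.1 at 168, 202 and 153 in WT and 320, 276 and 302 in KO (0.79, unadjusted p = 0.000752). AC124392.1 overlaps Gas1 on the other strand, so that its reads and those of Gas1 cannot be told apart.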
